A study of Sus scrofa with 2 samples.

Results

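The transcripts described here are those of 10 receptors through which TGF-beta, activins and bone morphogenetic proteins (BMPs) signal, measured in porcine granulosa cells. They were taken by name from the 34570 genes of the deposited tables: 4 type I receptors (ACVR1, ACVR1B, BMPR1A and TGFBR1), 4 type II receptors (TGFBR2, BMPR2, ACVR2B and ACVR2A) and 2 accessory receptors (ENG and TGFBR3). TGFBR2 is listed in the tables under the ID LOC100038019, and the RefSeq gene table of assembly Sscrofa11.1 gives that ID the symbol TGFBR2. Each of the 10 had reads in both libraries, each averaged 1 or more over the libraries, and no second entry under any of their names was found in the tables.

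Follicular granulosa cells, the somatic cells around the oocyte, came from the ovaries of Chinese Erhualian pigs, all female. The SMAD4-siRNA group received an siRNA against SMAD4, the shared partner of receptor-activated SMADs, and the NC-siRNA group received a control siRNA. RNA of 3 individuals was pooled in each group and 1 library was made per group, with no further treatment named in the labels. The siRNA dose, the hours after transfection and whether both pools came from the same pigs are not stated in the labels, so a difference between the libraries cannot be told apart from a difference between animals or transfections.

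Ligands of this family bind a pair of type II receptors, which are constitutively active kinases, and a pair of type I receptors, which the type II kinases phosphorylate. The type I receptor then sets which SMADs are activated: TGFBR1 and ACVR1B act on SMAD2 and SMAD3, whereas ACVR1 and BMPR1A act on SMAD1, SMAD5 and SMAD9. SMAD4 joins either set on its way to the nucleus, and accessory receptors such as TGFBR3 (betaglycan) and ENG (endoglin) present ligand but carry no kinase. In the ovary these receptors receive activins and inhibins made by granulosa cells, anti-Muellerian hormone, and the oocyte's GDF9 and BMP15.

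The values are upper-quartile-scaled RPKM, so levels are per length of transcript and were compared between genes on that basis. The labels name no annotation, and the part of incomplete gene models in these levels was not tested. The smallest whole reads behind the values summed to 17394711 in the SMAD4 siRNA library and 17680952 in the control library. Where the true reads were a multiple of these smallest reads, the counting intervals would be narrower, and some that include 1 might not. Ranges in parentheses after a value or a ratio are exact 95% counting intervals of the smallest reads. They cover counting error only, not variation among pigs or transfections, and PCR copies cannot be recognised without molecular identifiers. With 1 library per group no difference has a replicate check or a p-value. SMAD4 itself had 47.9 in the SMAD4 siRNA library and 85.0 in the control library, a ratio of 0.563. In cell mixtures such as these, fewer cells of a type and less RNA per cell cannot be told apart.

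The receptors fell into a strongly and a weakly represented set that cut across the classes. ACVR1, TGFBR2 and ACVR1B were the 3 highest in both libraries. Together with BMPR2 they made up 86.6% of the summed receptor value in the SMAD4 siRNA library and 92.0% in the control library. The TGF-beta, activin and BMP branches each had a partner at low level: the type II receptors for activin, ACVR2A and ACVR2B, and the type I receptors BMPR1A and TGFBR1 each held under 3% of the sum.

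**Figure D1:**
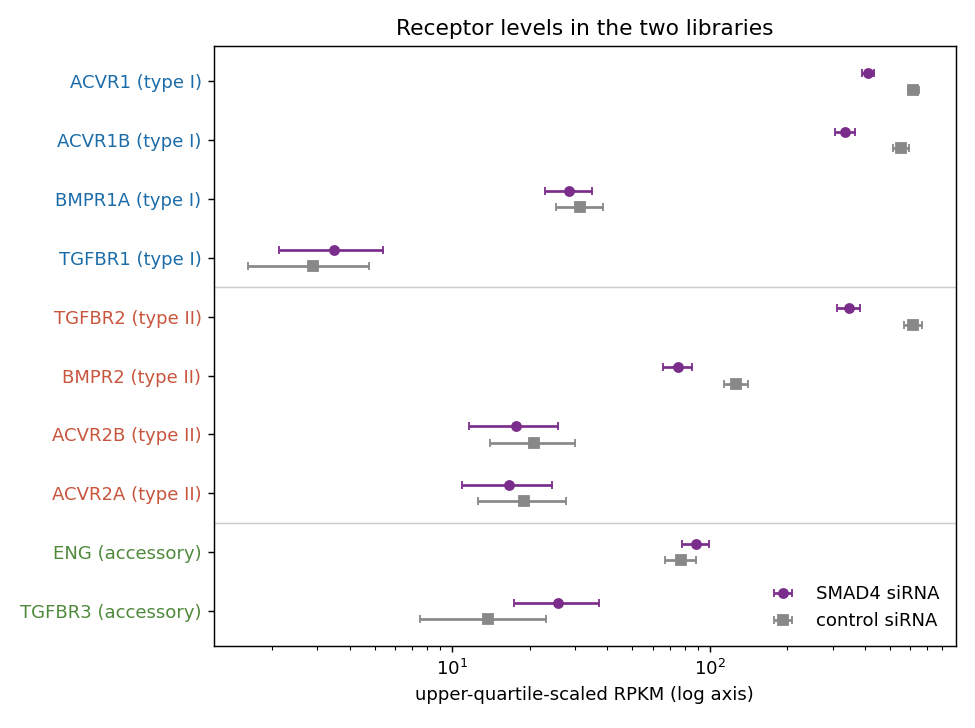
Value of each receptor (upper-quartile-scaled RPKM, log axis) in the SMAD4 siRNA library (circles) and the control library (squares), with exact 95% Poisson counting intervals, grouped by class. ACVR1, ACVR1B, TGFBR2 and BMPR2 have SMAD4 siRNA intervals that lie below their control intervals, and TGFBR1 is the lowest receptor in both libraries.

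Among type I receptors, ACVR1, which binds BMPs and in mice transmits anti-Muellerian hormone signals, had the highest level. It stood at 411 (389 to 435) on 1249 reads in the SMAD4 siRNA library and at 617 (588 to 647) on 1701 reads in the control library. ACVR1B, the type I receptor for activins, stood at 336 (307 to 367) on 500 reads in the SMAD4 siRNA library and at 551 (513 to 592) on 745 reads in the control library. Both were lower in the SMAD4 siRNA library, with intervals that did not overlap between the libraries. The ratio was 0.667 (0.619 to 0.718) for ACVR1 and 0.610 (0.543 to 0.684) for ACVR1B.

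BMPR1A, a type I receptor for BMP2 and BMP4 and needed for normal follicle development in mice, was far less abundant than ACVR1. Its value was 28.5 (23.0 to 35.0) in the SMAD4 siRNA library and 31.4 (25.3 to 38.5) in the control library. It had 92 reads in each library, so its ratio of 0.908 (0.673 to 1.23) is the scaling step between the libraries. TGFBR1, the type I receptor of TGF-beta and, in rodents, of GDF9, had the lowest level of all 10, at 3.48 (2.13 to 5.38) in the SMAD4 siRNA library and 2.88 (1.61 to 4.74) in the control library. Its ratio of 1.21 (0.589 to 2.54) rests on 20 reads in the SMAD4 siRNA library and 15 in the control library, which leaves both a lower and a doubled level inside the interval.

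Among type II receptors, TGFBR2, which binds TGF-beta first and recruits TGFBR1, had the lowest ratio of all 10. Its value was 347 (313 to 384) on 376 reads in the SMAD4 siRNA library and 615 (567 to 666) on 605 reads in the control library. The ratio was 0.564 (0.495 to 0.643). BMPR2, the type II receptor used by BMPs and by GDF9 and BMP15, stood at 75.2 (65.8 to 85.6) on 231 reads in the SMAD4 siRNA library and at 127 (114 to 140) on 353 reads in the control library. The libraries' intervals for both genes did not overlap, and the ratio of BMPR2 was 0.594 (0.501 to 0.704).

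The activin type II receptors were at low and nearly equal levels. ACVR2B stood at 17.6 (11.6 to 25.7) in the SMAD4 siRNA library and 20.9 (13.98 to 29.98) in the control library. ACVR2A stood at 16.7 (10.9 to 24.4) in the SMAD4 siRNA library and 19.1 (12.6 to 27.7) in the control library. Their ratios were 0.846 (0.482 to 1.48) for ACVR2B and 0.875 (0.490 to 1.56) for ACVR2A. With 56 reads for ACVR2B and 53 for ACVR2A over both libraries, neither a ratio like that of TGFBR2 nor one of 1 lay outside these intervals.

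The accessory receptors were the only class with each of its members on the higher side. ENG, a coreceptor for TGF-beta and BMP9 that is best known from endothelium, stood at 88.1 (77.7 to 99.4) on 261 reads in the SMAD4 siRNA library and at 77.3 (67.1 to 88.5) on 208 reads in the control library. The ratio was 1.14 (0.946 to 1.37). TGFBR3, which presents TGF-beta to TGFBR2 and also raises the affinity of activin type II receptors for inhibin, stood at 25.8 (17.3 to 37.1) in the SMAD4 siRNA library and 13.7 (7.51 to 23.1) in the control library. Its ratio of 1.88 (0.963 to 3.85) rests on at least 29 reads in the SMAD4 siRNA library and 14 in the control library. On these smallest reads both accessory intervals include 1.

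**Figure D2:**
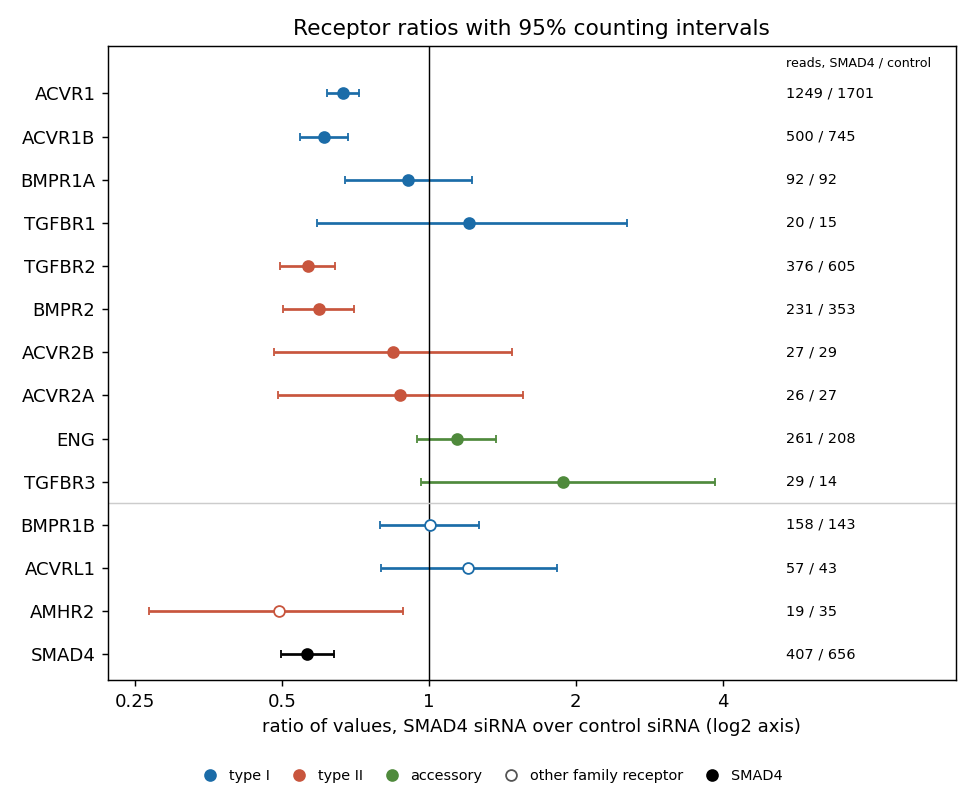
Ratio of values, SMAD4 siRNA over control siRNA (log2 axis), for the 10 receptors, 3 other receptors of the family (open circles) and SMAD4, with exact 95% counting intervals and the smallest whole reads of each library at the right. TGFBR2, BMPR2, ACVR1B and ACVR1 lie between 0.564 and 0.667 beside SMAD4 at 0.563, while ENG and TGFBR3 lie at 1.14 and 1.88.

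By class, the median log2 ratio of values with 1 added was -0.36 over 4 type I receptors, -0.49 over 4 type II receptors and 0.53 over 2 accessory receptors, beside -0.05 over all 16609 measured genes, those whose values averaged 1 or more. Of the 10 receptors, 3 were lower by at least 1.5-fold on that scale (TGFBR2, BMPR2 and ACVR1B), where 13.7% of all measured genes were. ACVR1 was just short of that threshold, at a log2 ratio of -0.58, and TGFBR3 alone was higher by at least 1.5-fold, where 13.5% of all measured genes were. With the libraries scaled to equal sums or by recovered reads, 1 receptor (TGFBR2) was lower by at least 1.5-fold with 1 added to values. As plain ratios, BMPR2 (0.645) and ACVR1B (0.662) also passed 1.5-fold with equal sums, as did BMPR2 (0.665) by recovered reads. By recovered reads, which multiplied each ratio by 1.12, the intervals of ENG (1.06 to 1.54) and TGFBR3 (1.08 to 4.31) lay wholly above 1. The shares of all genes under these scalings are not given here. As deposited, an interval wholly below 1 was found for 4 of 10 (TGFBR2, BMPR2, ACVR1B and ACVR1), beside 21.5% of measured genes. As deposited, 0 of 10 had an interval wholly above 1, beside 12.7% of measured genes. Ratios of weakly represented genes scatter widely, and among genes with at least 100 reads, where 6 of the receptors are, 5.69% were lower by at least 1.5-fold and 32.4% had an interval wholly below 1. Among those 9664 genes, 2.34% had a lower ratio than TGFBR2, 3.06% a lower one than BMPR2, 3.52% a lower one than ACVR1B and 5.85% a lower one than ACVR1. BMPR1A and ENG stood at the 39.4 and 79.6 percentiles of the same ranking.

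**Figure D3:**
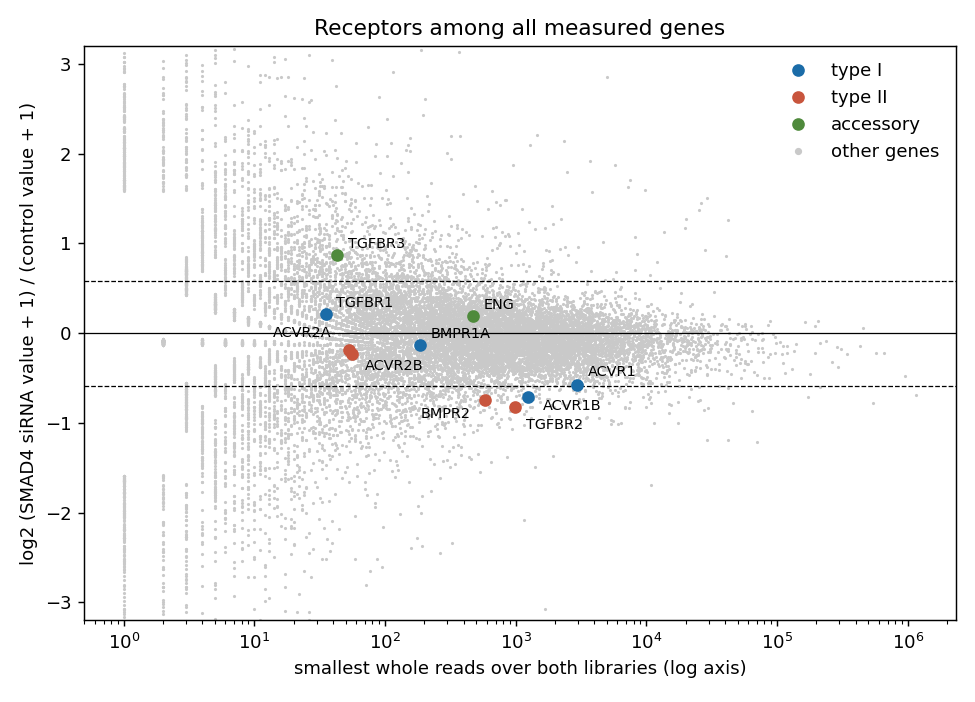
Log2 ratio of values with 1 added, SMAD4 siRNA over control, against the smallest whole reads over both libraries (log axis) for the 16609 measured genes (grey), with the receptors coloured by class and dashed lines at 1.5-fold; 158 genes beyond the vertical axis limits of 3.2 are not drawn. TGFBR2, BMPR2, ACVR1B and ACVR1 lie at the lower edge of genes with as many reads, whereas TGFBR3 and TGFBR1 lie where few reads spread all genes.

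Ratios of 2 receptors can be set against each other without any scaling between the libraries, as an odds ratio of their reads with an exact conditional interval. Over the summed reads of a class, type II over type I receptors gave 0.893 (0.795 to 1.003), an interval that reaches just past 1. Without the member with most reads in each class, TGFBR2 and ACVR1, it was 0.967 (0.801 to 1.17). Accessory receptors over type I and type II receptors together gave 1.85 (1.53 to 2.23). Of the 45 pairs of receptors, 13 had an interval that excluded 1: 4 of 16 pairs of a type I with a type II receptor, 4 of 8 pairs of a type I with an accessory receptor, 4 of 8 pairs of a type II with an accessory receptor, and 1 of 6 pairs within type I. None of 6 pairs within type II did. With 45 intervals at 95% and few reads behind several, these counts describe the libraries and are not a test.

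The receptors with many reads and low ratios stood apart mainly from the accessory receptors. The ratio of TGFBR2 was 0.495 times that of ENG (0.394 to 0.623), and that of its coreceptor TGFBR3 was 3.33 times that of TGFBR2 (1.68 to 6.91). Within the TGF-beta receptor pair, the ratio of TGFBR2 was 0.466 times that of TGFBR1 (0.219 to 0.972). Within the BMP branch, that of BMPR2 was 0.654 times that of BMPR1A (0.463 to 0.926). ACVR1B and BMPR1A were the type I pair that differed, at 0.671 (0.486 to 0.927), and TGFBR2 against ACVR1 was at 0.846 (0.728 to 0.984). In other pairs of partners the interval included 1: the ratio of BMPR2 was 0.891 times that of ACVR1 (0.740 to 1.07), and in the activin branch that of ACVR1B, the type I receptor, was 0.697 times that of ACVR2A (0.387 to 1.26). Set against SMAD4, 3 of the 4 receptors with an interval below 1 had ratios of ratios near 1: 1.002 (0.835 to 1.20) for TGFBR2, 1.05 (0.853 to 1.30) for BMPR2 and 1.08 (0.911 to 1.28) for ACVR1B. That of ACVR1 was 1.18 (1.02 to 1.37), of BMPR1A 1.61 (1.16 to 2.23) and of ENG 2.02 (1.61 to 2.54).

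The order of the levels was firm only between steps. In the SMAD4 siRNA library the order was ACVR1, TGFBR2, ACVR1B, ENG, BMPR2, BMPR1A, TGFBR3, ACVR2B, ACVR2A and TGFBR1. ACVR1 was above TGFBR2 by 1.19 times (1.06 to 1.33), but TGFBR2 and ACVR1B, ENG and BMPR2, and the neighbours from BMPR1A down to ACVR2A did not differ beyond counting error. In the control library the order was ACVR1, TGFBR2, ACVR1B, BMPR2, ENG, BMPR1A, ACVR2B, ACVR2A, TGFBR3 and TGFBR1. There ACVR1 and TGFBR2 differed by 1.003 times (0.914 to 1.10), TGFBR2 and ACVR1B did not differ beyond counting error, nor did the neighbours from BMPR1A down to TGFBR3, and BMPR2 stood above ENG by 1.64 times (1.38 to 1.95). BMPR2 was thus above ENG in the control library, while in the SMAD4 siRNA library ENG came first with an interval that includes 1. TGFBR3 stood above the activin type II receptors in the SMAD4 siRNA library and below them in the control library, in both with an interval to the nearest of them that includes 1.

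Signalling partners stood at very unequal levels, with the type II receptor far above the type I receptor for TGF-beta and far below it for activin. The level of TGFBR2 was 99.6 times that of TGFBR1 in the SMAD4 siRNA library and 214 times in the control library. Both figures are loose, as TGFBR1 had 20 reads in the SMAD4 siRNA library and 15 in the control library. ACVR1B stood at 20.2 times ACVR2A in the SMAD4 siRNA library and 28.9 times in the control library. BMPR2 stood at 2.64 times BMPR1A in the SMAD4 siRNA library and 4.03 times in the control library. For TGFBR2 over its coreceptor TGFBR3 the level ratio was 13.4 in the SMAD4 siRNA library and 44.7 in the control library. In these 4 pairs the gap was smaller in the SMAD4 siRNA library, since the more abundant partner had the lower ratio. BMPR2 over ACVR1 went the other way, at 0.183 in the SMAD4 siRNA library and 0.205 in the control library, a wider gap in the SMAD4 siRNA library. The change in the gap was within counting error for BMPR2 over ACVR1 (0.740 to 1.07) and for ACVR1B over ACVR2A (0.387 to 1.26).

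As a share of the summed value of the 10 receptors, TGFBR2 held 25.7% in the SMAD4 siRNA library and 29.6% in the control library. ENG held 6.53% in the SMAD4 siRNA library and 3.73% in the control library, and TGFBR3 held 1.91% in the SMAD4 siRNA library and 0.662% in the control library. Both accessory receptors thus took a larger share in the SMAD4 siRNA library, and TGFBR2 a smaller one. Type I receptors together held nearly the same share, 57.7% in the SMAD4 siRNA library and 58.0% in the control library. Type II receptors held 33.8% in the SMAD4 siRNA library and 37.7% in the control library, and accessory receptors held 8.44% in the SMAD4 siRNA library and 4.39% in the control library. The sum itself was 1350 in the SMAD4 siRNA library and 2075 in the control library, a ratio of 0.651.

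**Figure D4:**
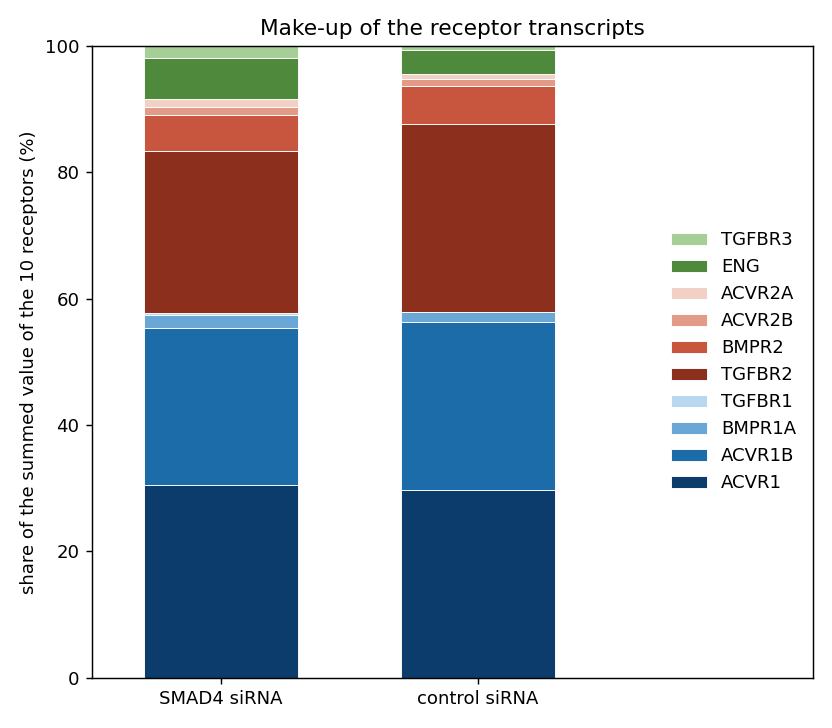
Share of each receptor in the summed value of the 10 receptors (%), in the SMAD4 siRNA library and the control library, with type I receptors in blue, type II in red and accessory receptors in green. In the SMAD4 siRNA library type II receptors make up 33.8% and accessory receptors 8.44%, against 37.7% and 4.39% in the control library.

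The remaining kinase receptors of the family, which were not among the 10, were below ACVR1, TGFBR2, ACVR1B, BMPR2 and ENG. BMPR1B was above the other members in both libraries. BMPR1B, the type I receptor for BMP15 whose variants raise ovulation rate in sheep, stood at 48.2 in the SMAD4 siRNA library and 48.1 in the control library, a ratio of 1.003 (0.795 to 1.27). ACVRL1, a type I receptor best known from endothelium and a partner of ENG, stood at 14.5 in the SMAD4 siRNA library and 12.1 in the control library, a ratio of 1.20 (0.796 to 1.83). AMHR2, the type II receptor of anti-Muellerian hormone and a granulosa marker, stood at 8.49 in the SMAD4 siRNA library and 17.2 in the control library, a ratio of 0.493 (0.266 to 0.886). AMHR2 had 19 reads in the SMAD4 siRNA library and 35 in the control library. ACVR1C had 0 reads in the SMAD4 siRNA library and 1 in the control library. Among BMP type I receptors, the ratio of ACVR1 was 0.665 times that of BMPR1B (0.520 to 0.849), whereas that of BMPR1A was 0.905 times (0.617 to 1.33). Those of TGFBR2, BMPR2 and ACVR1B were 0.562, 0.592 and 0.607 times that of BMPR1B. Against ACVRL1, the ratios of TGFBR2, BMPR2, ACVR1B and ACVR1 were 0.469, 0.494, 0.506 and 0.554 times. All of these intervals but that of BMPR1A lay wholly below 1. Against AMHR2 the intervals of TGFBR2, BMPR2, ACVR1B and ACVR1 included 1. The ratio of ENG was 1.14 times that of BMPR1B (0.840 to 1.53).

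Elsewhere in the pathway, lists of ligands, of ligand traps, of membrane regulators and of receptor partners differed in their medians. Over all measured genes, 13.7% were lower and 13.5% higher by at least 1.5-fold, and with at least 100 reads 5.69% and 4.39%, which is the background for the counts that follow. Over 12 measured ligands the median log2 ratio was -0.08, with 1 lower and 3 higher by at least 1.5-fold. At its ends among ligands with at least 100 reads were TGFB3 at a ratio of 0.524 (0.475 to 0.577) and GDF9 at 0.772 (0.559 to 1.07), and INHBA, the activin A subunit, at 1.31 (1.22 to 1.41) and TGFB1 at 1.69 (1.47 to 1.94). Ligand traps and binding proteins had a median of -0.50 over 15 measured, with 5 lower and 0 higher by at least 1.5-fold, all 5 among the 14 with at least 100 reads. The matrix proteins LTBP2 and THBS1 both had a ratio of 0.583, and TWSG1 and BGN had 0.993 and 1.05.

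Other membrane regulators and coreceptors had a median of -0.46 over 14 measured, with an interval wholly below 1 for 11 and wholly above 1 for 1. Over all measured genes these shares were 21.5% and 12.7%, and over genes with at least 100 reads, where 12 of the 14 lie, 32.4% and 17.6%. The 1 above was RGMA, a BMP coreceptor of the repulsive guidance family, which stood at 54.1 in the SMAD4 siRNA library and 27.2 in the control library, a ratio of 1.99 (1.53 to 2.61). Among those with at least 100 reads, ITGB1, an integrin subunit, was lowest at 0.695, with LRP1 at 0.707 and ITGB8, a subunit of a TGF-beta-activating integrin, at 0.886. The partners that bind, move or degrade the receptors had a median of -0.05 over 33 measured, the same to 2 decimals as all genes. Among these 2 were lower and 0 higher by at least 1.5-fold, and those with at least 100 reads ran from TRAF6 at 0.613 (0.499 to 0.752) and WWP1, a ubiquitin ligase, at 0.675 to UCHL5 at 1.22 and CAV1, the caveolin of receptor endocytosis, at 1.40 (1.10 to 1.78).

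SMADs, the siRNA target SMAD4 included, had a median of -0.68 over 6 measured, with 4 lower by at least 1.5-fold, SMAD4 among them. SMAD6, an inhibitory SMAD, was lowest at 0.513, followed by SMAD4. SMAD3 at 0.912 (0.830 to 1.0025) and SMAD2 at 1.01 (0.770 to 1.34), the SMADs that TGFBR1 and ACVR1B phosphorylate, were highest, while both libraries list SMAD1 and SMAD5 at 0. As another family of receptor kinases, 34 measured receptor tyrosine kinases had a median of -0.19, with 7 lower and 3 higher by at least 1.5-fold. An interval wholly below 1 was found for 16, beside 21.5% of all measured genes. Of these 16, 15 were among the 22 with at least 100 reads, a depth at which 32.4% of genes had one. The lowest with at least 100 reads were KIT, the receptor of stem cell factor, at 0.481 (0.412 to 0.561) and MST1R at 0.542, and the highest were EPHB2 at 1.10 and FGFR4 at 1.51 (1.15 to 1.998).

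**Figure D5:**
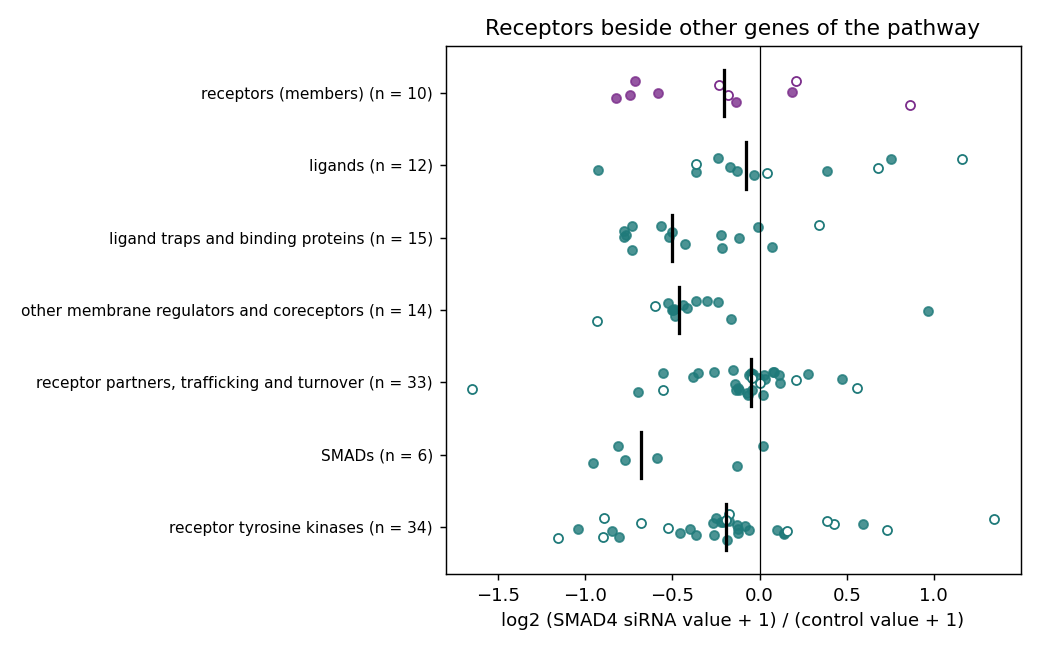
Log2 ratio of values with 1 added, SMAD4 siRNA over control, for the 10 receptors and the measured genes of 6 other lists; filled circles had at least 100 reads over both libraries, open circles fewer, and black bars are medians. Medians lie at -0.21 for the receptors, -0.68 for SMADs (the siRNA target SMAD4 included), -0.50 for ligand traps and -0.05 for receptor partners.

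Markers of cell types differed between the libraries in some lists, while 0 of 4 measured leukocyte markers had an interval that excluded 1. Of 13 granulosa markers 11 were measured, with a median log2 ratio of 0.05. An interval lay wholly below 1 for 2 (21.5% of measured genes), NR5A1 at 0.849 (0.741 to 0.973) and AMHR2 at 0.493 (0.266 to 0.886). It lay wholly above 1 for 1 (12.7% of measured genes), INHBA at 1.31 (1.22 to 1.41). INHA stood at 150 in the SMAD4 siRNA library and 178 in the control library. FOXL2 stood at 146 in the SMAD4 siRNA library and 132 in the control library. The intervals of both ratios included 1. FSHR had 16 reads over both libraries, and AMH and CYP19A1 were listed at 0. In the list of theca and stroma markers, CYP17A1, INSL3 and LHCGR were listed at 0 in both libraries. Of the other 4, LUM at 0.583 (0.471 to 0.720), DCN at 0.743 (0.707 to 0.781) and PDGFRA at 0.877 (0.811 to 0.948) were lower and COL1A1 at 1.06 (1.01 to 1.11) was higher. Smooth muscle markers summed to 443135 in the SMAD4 siRNA library and 675527 in the control library, a ratio of 0.656, nearly all of it ACTA2 and TAGLN. An interval lay wholly below 1 for 3 of 6 measured markers (21.5% of measured genes). All 3 were among the 5 with at least 100 reads, a depth at which 32.4% of genes had one. It lay wholly above 1 for DES, at a ratio of 1.16 (1.11 to 1.22). MYH11 was listed at 0. The part of the smooth muscle and stroma differences in the ratios of TGFBR2, BMPR2, ACVR1B and ACVR1 was not tested. Endothelial markers, of interest for ENG and ACVRL1, summed to 352 in the SMAD4 siRNA library and 452 in the control library, with PECAM1 at a ratio of 0.875 (0.793 to 0.964), ERG at 0.582 (0.442 to 0.763) and TEK listed at 0. VWF at 0.778 (0.216 to 2.71), KDR at 2.36 (0.790 to 8.46) and CLDN5 at 1.36 (0.433 to 4.65) had 18 reads or fewer each. The part of endothelial cells in the values of ENG and ACVRL1 was not tested. Leukocyte markers summed to 575 in the SMAD4 siRNA library and 588 in the control library, nearly all of it CD14, and PTPRC had 3 reads in all.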

How the data were processed

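RNA-seq tables of 2 libraries were used, 1 per group, each from RNA of 3 individuals pooled in equal amounts and sequenced on an Ion Torrent Proton, per the labels' protocols. The authors deposited upper-quartile-scaled RPKM, as the tables' names say. For aligner, counter, build and annotation, the labels name none. Values were used as deposited. For all 18428 genes above 0, the values equalled whole reads times 1000000 over transcript length and a divisor of 980 (SMAD4 siRNA) or 890 (control), within the printed digits. The smallest such reads were used at lengths up to 40000 bases, so they are lower bounds. Intervals computed from them are therefore at their widest, and more true reads would narrow them. Ratios carry exact Clopper-Pearson 95% intervals from the split of these reads, levels exact Poisson intervals, and pairs of genes conditional odds ratios (Python 3.11.15, scipy 1.17.1).

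Log2 ratios have a pseudocount of 1, which understates changes of low values, and a minimum mean value of 1. A gene counted as lower or higher at 1.5-fold. Read recovery, the intervals of ratios and the 1.5-fold calls were tested on simulated data, the other steps were not. Receptors, lists, thresholds and classes were chosen with earlier results of these data known. Named genes are the receptors, SMAD4, other kinase receptors of the family, and the 2 highest and 2 lowest ratios of each list among genes with at least 100 reads. Cell type markers, SMAD1, SMAD5 and genes listed at 0 were named after their values were seen. Gene names for IDs without a symbol came from the RefSeq table of Sscrofa11.1. Alternatives were other pseudocounts, scalings, minimums and thresholds. Promoter and protein sequences were not analysed here.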

Additional observations from a re-analysis of the deposited data

How the results depend on the processing

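The count of lower receptors was 3 with 1 added to the values. On that scale it was 1 with both libraries brought to equal TPM-like sums, and 1 with each scaled by its total of recovered reads. Scaling by recovered reads was an alternative chosen after seeing the data. TGFBR2 was the receptor that remained in both. Plain ratios passed 1.5-fold also for BMPR2 (0.645) and ACVR1B (0.662) at equal sums and for BMPR2 (0.665) by recovered reads. The shares of all genes under these scalings are not given here. Centring on the median or on the trimmed mean left the count at 3. At 2-fold, 0 receptors were lower and 0 higher. The single higher receptor, TGFBR3, left 0 among those with at least 100 reads and 0 with an interval wholly above 1. Scaling by recovered reads multiplied each ratio by 1.12, a shift of 0.16 on the log2 scale that took the median of all measured genes to 0.11. There TGFBR2, BMPR2, ACVR1B and ACVR1 still had intervals wholly below 1 (0.632, 0.665, 0.682 and 0.746), ENG at 1.28 (1.06 to 1.54) and TGFBR3 at 2.11 (1.08 to 4.31) had intervals wholly above 1, and BMPR1A turned to 1.02. The other 9 receptors kept their direction under each alternative in which they were measured. The medians of the 3 classes kept theirs too. TGFBR1, ACVR2A, ACVR2B and TGFBR3 had under 100 of the smallest whole reads each, so their intervals are wide. True reads may have been more. No paired analysis was possible because each group has 1 library.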
